A study of Mus musculus with 9 samples.

Results

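The genes described here are interferon response genes, which cells switch on after interferon binds its receptor. A list of 38 such genes was named by their known function, and a gene was measured where at least 1 probe set was annotated to its symbol alone. This held for 35 of the 38, out of 19930 genes measured that way. Isg15, the ubiquitin-like protein of this response, and Gbp2, a guanylate-binding GTPase, were left out because their probe sets are shared with Gm9706 and Gbp2b, and Ifi44 had no probe set under its symbol. Each of the 35 genes had 1 probe set except Irf1, which had 2 whose log2 signals were averaged.

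The arrays were Affymetrix Mouse Gene 1.0 ST arrays of 9 preparations of adipose stromal cells, which are isolated from the fat pad of the mammary gland, and the series asked how these cells differ between stages of mammary development. All came from mammary glands of female Balb/c mice, with 3 arrays per stage. ASC-Ns came from nulliparous mice at 8 weeks of age, ASC-Ls from mice at day 5 of lactation, and ASC-Is from mice at day 3 of involution, after pups had been removed. The study describes low passage cultures extracted with an RNeasy kit, whereas the labels name Trizol and do not mention culture. Glands were digested with collagenase and hyaluronidase, so the preparations are mixed stroma, and which mice stand behind each array is not given in the sources used here. The p-values below therefore measure the spread between these preparations. In such bulk RNA, fewer cells of a type and less RNA per cell cannot be told apart.

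Interferons alpha and beta signal through the receptor chains Ifnar1 and Ifnar2 and the kinases Jak1 and Tyk2 to phosphorylate Stat2, which joins Irf9 in the complex ISGF3. ISGF3 binds interferon-stimulated response elements in promoters and turns on genes whose products sense foreign nucleic acid, block viral replication and raise antigen presentation. Interferon gamma acts through a separate receptor and shares many of these targets. Stromal fibroblasts respond to both.

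The promoter element of this response is shown first, since it is what many of the listed genes share. The motif GAAA, followed by 2 bases of any kind and GAAA again, was searched on both strands (TTTC, 2 bases and TTTC on the other) in RefSeq promoter windows of GRCm38.p6, which span 250 bases before to 50 bases after a transcription start. A window was found for 29 of the 38 listed genes and held the motif in 12 of them (41.4%), against 1079 of 27025 genes with a window (3.99%). Among the 35 measured genes, 10 of 26 with a window held it (38.5%). Stretches of the 4 promoters whose genes had the largest stage differences among measured genes with the motif follow, with the motif in capitals and 5′ to 3′ on the strand of the gene. They are Gbp3 at chr3:142559974-142560039 on the plus strand, Oas1a at chr5:120907526-120907570 on the minus strand, Stat2 at chr10:128270251-128270310 on the plus strand and Bst2 at chr8:71537562-71537627 on the minus strand.
Gbp3: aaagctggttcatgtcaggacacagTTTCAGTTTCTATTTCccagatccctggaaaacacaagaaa
Oas1a: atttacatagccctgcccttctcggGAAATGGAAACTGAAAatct
Stat2: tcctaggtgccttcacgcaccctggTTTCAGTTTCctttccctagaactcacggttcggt
Bst2: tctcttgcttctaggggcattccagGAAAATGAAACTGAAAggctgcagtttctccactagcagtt

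In Gbp3, Oas1a and Bst2 the capitals hold 2 overlapping matches, at -45 to -30, -20 to -5 and -130 to -115 from the start, and in Stat2 a single match at -222 to -213. These are matches of letters and not measured binding sites.

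No interferon response gene passed the limits for a stage difference, namely a change of 1.5-fold or more with an unadjusted p below 0.05. The count was 0 of 35 for ASC-Ls against ASC-Ns, where 0.627% of all genes passed, 0 of 35 for ASC-Is against ASC-Ns, where 0.251% passed, and 0 of 35 for ASC-Is against ASC-Ls, where 0.482% passed. With an adjusted p under 0.05 (limma, Benjamini-Hochberg over all 19930 genes), 0 interferon response genes and 0 of all genes passed in each comparison. At an unadjusted p under 0.05 alone, 0, 0 and 1 of the 35 genes passed in these comparisons, against 3.64%, 1.56% and 1.8% of all genes. In none of the 35 did the arrays of the compared stages lie apart without overlap, which 8.59%, 6.53% and 5.56% of all genes did.

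The fitted stage differences were small beside their errors. For ASC-Ls minus ASC-Ns they ran between -0.41 and 0.41 on the log2 scale, with a median of -0.03 against 0.01 over all genes, and 15 were positive and 20 negative. For ASC-Is minus ASC-Ns they ran between -0.42 and 0.24, with a median of -0.10 against 0.00 over all genes, and 7 were positive and 28 negative. For ASC-Is minus ASC-Ls they ran between -0.45 and 0.36, with a median of -0.15 against -0.01, and 9 were positive and 26 negative.

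The sign of these medians turned with single arrays. The median for ASC-Ls minus ASC-Ns was -0.35 without ASC-L replicate 3 and 0.21 or 0.30 without ASC-L replicate 1 or 2, and it was 0.03 or 0.09 without ASC-N replicate 2 or 3. The median for ASC-Is minus ASC-Ns was 0.19 without ASC-I replicate 2, and for ASC-Is minus ASC-Ls it was 0.32 without ASC-L replicate 3 and 0.15 without ASC-I replicate 2.

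**Figure D1:**
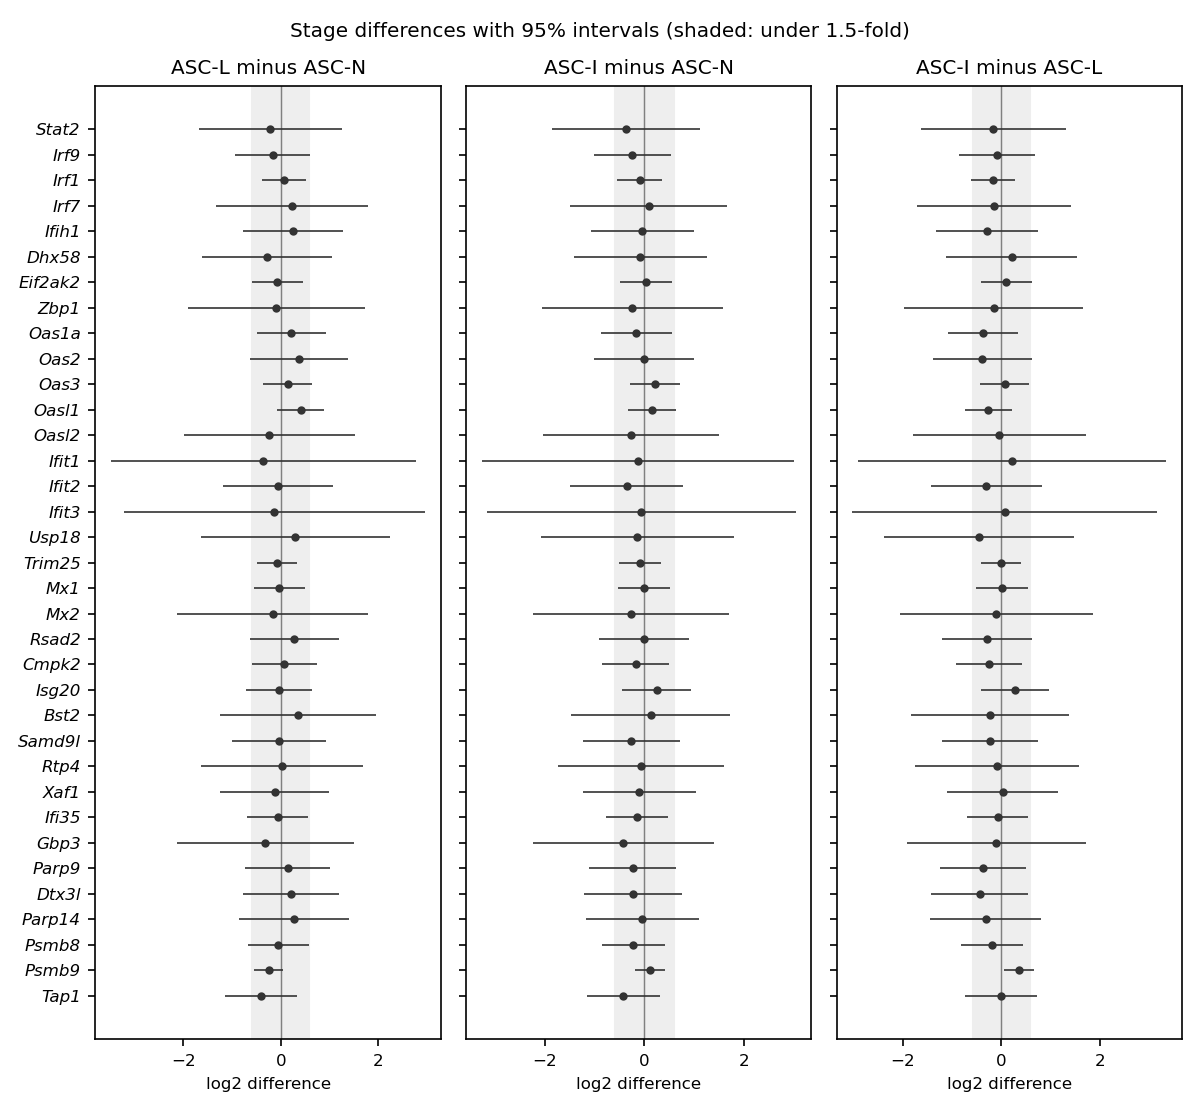
Log2 differences between stages for the 35 interferon response genes with 95% intervals from limma (n = 3 arrays per stage), with the range under 1.5-fold shaded. All points lie between -0.45 and 0.41, and the interval lies wholly inside the shaded range for 4, 5 and 3 genes in the panels as they run left to right.

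The data do not show that these genes were alike across stages either, because the errors were wide. The median standard error over the 35 genes was 0.43 on the log2 scale, with a range of 0.13 to 1.38, against 0.16 over all genes. The 95% interval of the difference stayed within 1.5-fold in both directions for 4 of 35 genes between ASC-Ls and ASC-Ns, for 5 between ASC-Is and ASC-Ns and for 3 between ASC-Is and ASC-Ls. With the replicate number as a block over all 9 arrays, the median standard error was 0.28 and these counts were 9, 6 and 8. Under the block 0 genes passed the limits. The numbers were counted as pairs between ASC-Ls and ASC-Is only. The counts of 9 and 6 and part of the standard error thus rest on a pairing of ASC-Ns that was not taken to hold.

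The spread between arrays of the same stage was wider in these genes than in the median gene. Their SD within stages had a median of 0.64 on the log2 scale, against 0.20 over all genes, and it was above 0.5 in 21 of 35 (60%) against 8.91% of all genes. The range over the 9 arrays had a median of 3.64-fold, against 1.5-fold over all genes. Differences between stages took a median of 5.06% of the sum of squares of an interferon response gene, against 15.9% over all genes. Differences between the replicate numbers of the labels took 66.5%, against 36.5%. These shares are given as descriptions, without a test. The interferon response genes also had a higher median mean signal, 7.32 against 6.25 over all genes, and genes of matched signal were not compared. Wide spread was not particular to these genes. The SD of the array means within ASC-Ns, ASC-Ls and ASC-Is was 0.29, 0.98 and 0.63 for the interferon response genes, 1.18, 0.15 and 0.80 for macrophage markers and 0.72, 1.75 and 1.12 for luminal epithelial markers.

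**Figure D2:**
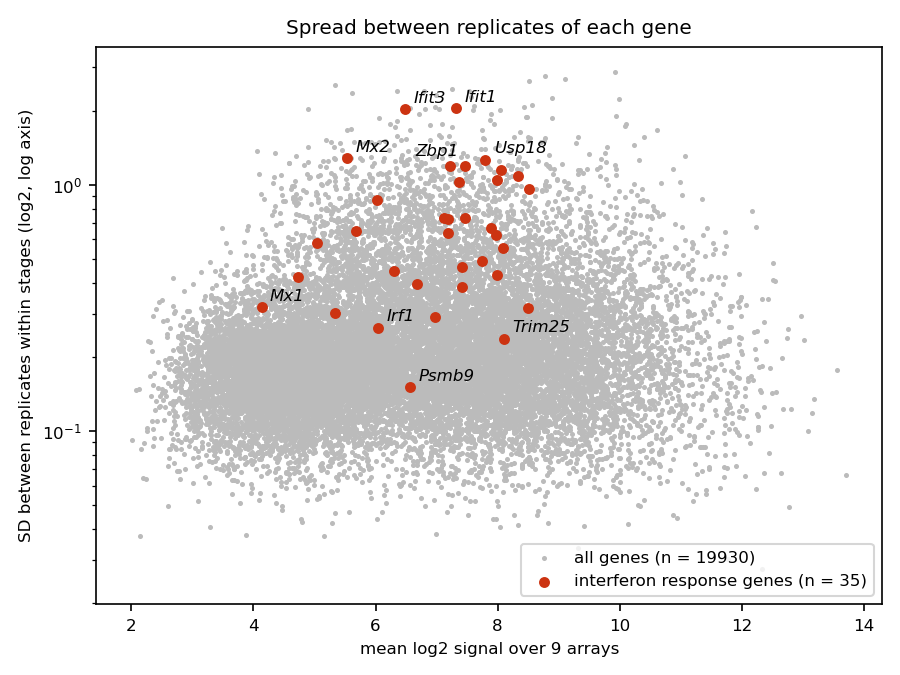
SD between replicates within stages (log2 scale, on a log axis) against mean log2 signal over the 9 arrays, for all 19930 genes (gray) and the 35 interferon response genes (red). The red points run between 0.15 for Psmb9 and 2.06 for Ifit1, and 21 of them lie above 0.5.

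The arrays numbered 3 carried the high values, which was noticed in these data and not named by the design. The mean log2 signal of the 35 genes was 6.75, 7.08 and 7.33 in ASC-N replicates 1, 2 and 3, 6.51, 6.48 and 8.19 in the ASC-L replicates, and 6.87, 6.35 and 7.60 in the ASC-I replicates. ASC-L replicate 3 was thus the highest array, 3.60-fold above the lowest, ASC-I replicate 2, while the median over all genes stayed between 6.22 and 6.29 on every array. In 21 of 35 genes (60%) the highest array of each of the 3 stages carried the number 3, as in 7.96% of all genes. ASC-L replicate 3 was the highest of the 9 arrays in 31 of 35 (88.6%), against 13.2% of all genes. The lowest array was ASC-I replicate 2 in 16 genes, ASC-L replicate 2 in 10, ASC-L replicate 1 in 8 and ASC-N replicate 1 in the remaining 1. After quantile normalization the number 3 array was highest in each stage in 22 genes, and ASC-L replicate 3 was the highest of all in 31.

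**Figure D3:**
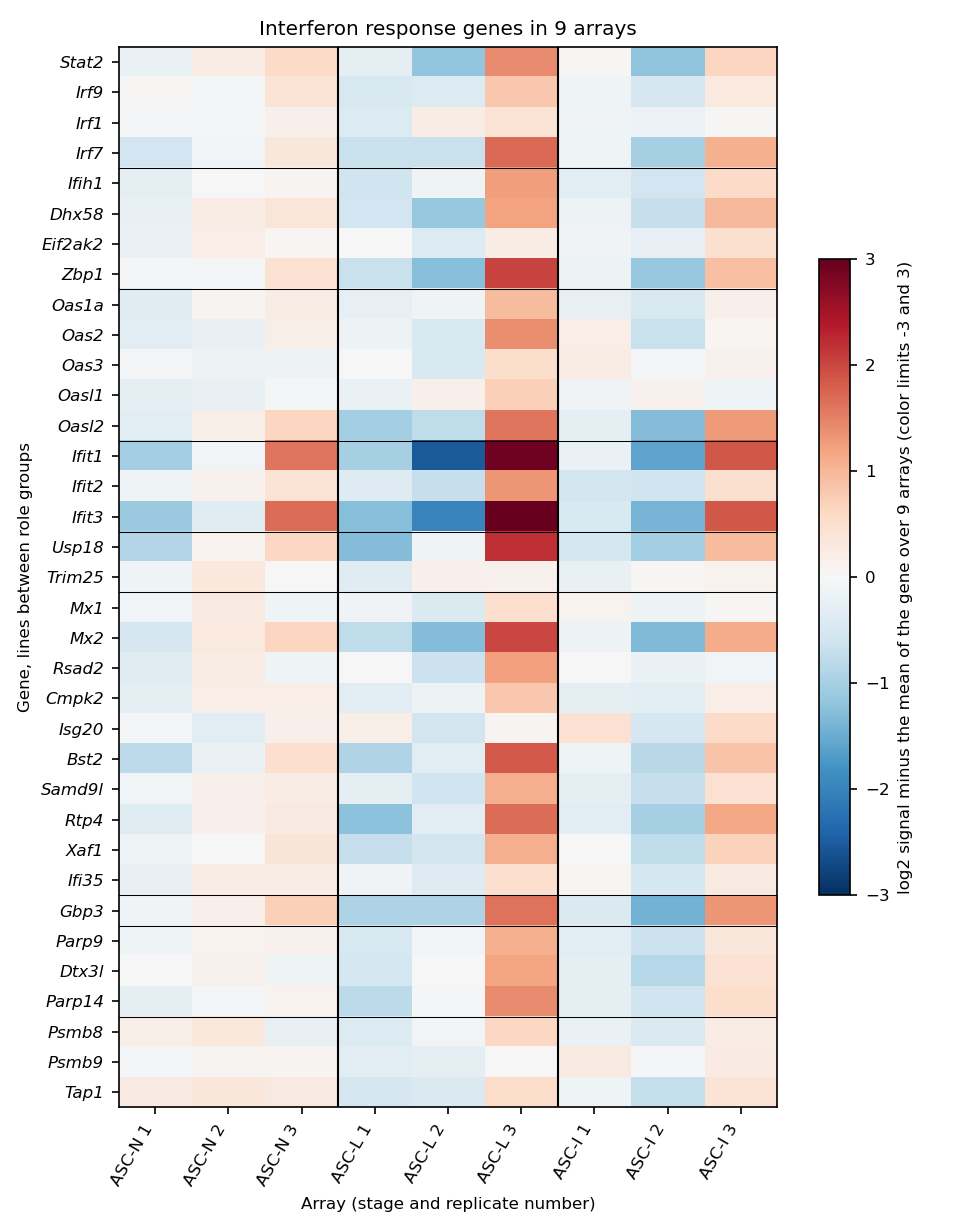
Log2 signal of each interferon response gene minus its mean over the 9 arrays (color, limits -3 and 3), with arrays in columns by stage and replicate number and genes in rows by role. The column of ASC-L replicate 3 is the reddest, holding the highest value of 31 of 35 genes, and the columns of ASC-L replicate 2 and ASC-I replicate 2 hold the lowest value of 10 and 16 genes.

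The transcription factors of the pathway showed the pattern first. Stat2, a subunit of ISGF3, had log2 signals of 8.30, 8.73 and 9.08 in ASC-N replicates 1, 2 and 3, of 8.21, 7.34 and 9.93 in the ASC-L replicates and of 8.53, 7.30 and 9.16 in the ASC-I replicates. Replicate 3 was highest at every stage and replicate 2 lowest in ASC-Ls and ASC-Is, and the stages overlapped. Its differences were -0.21 for ASC-Ls minus ASC-Ns, -0.37 for ASC-Is minus ASC-Ns and -0.16 for ASC-Is minus ASC-Ls (standard error 0.65, limma). Irf9, the DNA-binding subunit of ISGF3, had log2 signals of 7.76, 7.71 and 8.15 in ASC-Ns, of 7.26, 7.33 and 8.53 in ASC-Ls and of 7.61, 7.24 and 8.02 in ASC-Is. Replicate 3 was again highest at every stage, over a narrower range of 2.45-fold against 6.19-fold for Stat2. Irf7, which amplifies the production of type I interferon, had 6.80, 7.28 and 7.69 in ASC-Ns, 6.69, 6.71 and 9.06 in ASC-Ls and 7.22, 6.36 and 8.44 in ASC-Is. Its ASC-N arrays all lay between the ASC-L extremes. Irf1, a factor induced chiefly by interferon gamma, ranged over 1.75-fold between 5.65 and 6.45 on the log2 scale as the mean of its 2 probe sets. Replicate 3 was highest at each stage in that mean. The brighter probe set ran between 6.11 and 7.59 and had the same pattern. The dimmer one ran between 4.82 and 5.31 and had replicate 3 lowest in ASC-Is.

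Among the cytosolic sensors of nucleic acid, 3 of 4 had replicate 3 highest at every stage. Ifih1, the sensor MDA5 of long double-stranded RNA, had log2 signals of 7.61, 7.90 and 7.97 in ASC-Ns, of 7.31, 7.78 and 9.15 in ASC-Ls and of 7.56, 7.32 and 8.48 in ASC-Is. The ASC-L and ASC-I arrays other than replicate 3 all lay below ASC-N replicate 2. Dhx58, or LGP2, which modulates MDA5 and RIG-I, had 5.80, 6.24 and 6.39 in ASC-Ns, 5.45, 4.89 and 7.21 in ASC-Ls and 5.86, 5.34 and 6.99 in ASC-Is. Zbp1, a sensor of Z-form nucleic acid that can trigger necroptosis, had 7.41, 7.40 and 7.93 in ASC-Ns, 6.79, 6.18 and 9.49 in ASC-Ls and 7.32, 6.32 and 8.36 in ASC-Is. For both genes the ASC-L arrays alone spanned every other array. Eif2ak2, the kinase PKR that halts translation, had the smallest within-stage SD of the 4 at 0.32, with all arrays between 8.08 and 8.98. Fitted stage differences in the group lay between -0.29 and 0.25.

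The 2-5A synthetases make the oligoadenylates that activate RNase L. Oasl1, which in mice acts on the translation of Irf7 rather than through oligoadenylates, had log2 signals of 6.68, 6.75 and 6.95 in ASC-Ns, of 6.78, 7.14 and 7.69 in ASC-Ls and of 6.87, 7.11 and 6.84 in ASC-Is. Its difference of 0.41 between ASC-Ls and ASC-Ns was the largest positive one of the 35 genes in that comparison but did not pass (standard error 0.21, unadjusted p = 0.0873, adjusted p = 0.998, limma), and ASC-L replicate 1 lay among the ASC-N arrays. Without that array the difference was 0.62 and passed both limits. Oas2 had 5.37, 5.46 and 5.85 in ASC-Ns, 5.53, 5.22 and 7.07 in ASC-Ls and 5.89, 5.02 and 5.74 in ASC-Is, so that its difference of 0.38 between ASC-Ls and ASC-Ns came with 1 ASC-L array above all others. Oasl2, which does make oligoadenylates in mice, had 7.73, 8.23 and 8.71 in ASC-Ns, 7.04, 7.28 and 9.65 in ASC-Ls and 7.76, 6.76 and 9.32 in ASC-Is. Its range of 7.41-fold was the widest of the family, while Oas3 ranged over 1.99-fold and Oas1a over 2.63-fold. A further probe set shared by Oas1a and Oas1g had its highest signal, 8.20, in ASC-L replicate 3 as well.

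The IFIT proteins bind the ends of foreign RNA and block its translation, and Ifit1 and Ifit3 had the widest spread of the 35 genes. Ifit1 had log2 signals of 6.30, 7.24 and 8.93 in ASC-N replicates 1, 2 and 3, of 6.33, 4.81 and 10.25 in the ASC-L replicates and of 7.13, 5.73 and 9.19 in the ASC-I replicates. The highest array lay 43.4-fold above the lowest, both of them ASC-L arrays. Ifit3 had 5.36, 6.12 and 8.17 in ASC-Ns, 5.21, 4.50 and 9.56 in ASC-Ls and 6.03, 5.09 and 8.35 in ASC-Is. In each stage replicate 3 stood above both other arrays, and stage took 0.10% of the sum of squares of Ifit3 whereas replicate number took 88.5%. Fold differences between replicates 3 and 2 of Ifit1 were 43.4 in ASC-Ls and 11.0 in ASC-Is, and replicate 3 was 6.20-fold above replicate 1 in ASC-Ns. Ifit2 had a narrower range of 3.99-fold, with 6.98, 7.26 and 7.52 in ASC-Ns, 6.73, 6.44 and 8.43 in ASC-Ls and 6.57, 6.52 and 7.60 in ASC-Is. For all 3 genes the fitted stage differences, between -0.36 and 0.22, were smaller than their standard errors.

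**Figure D4:**
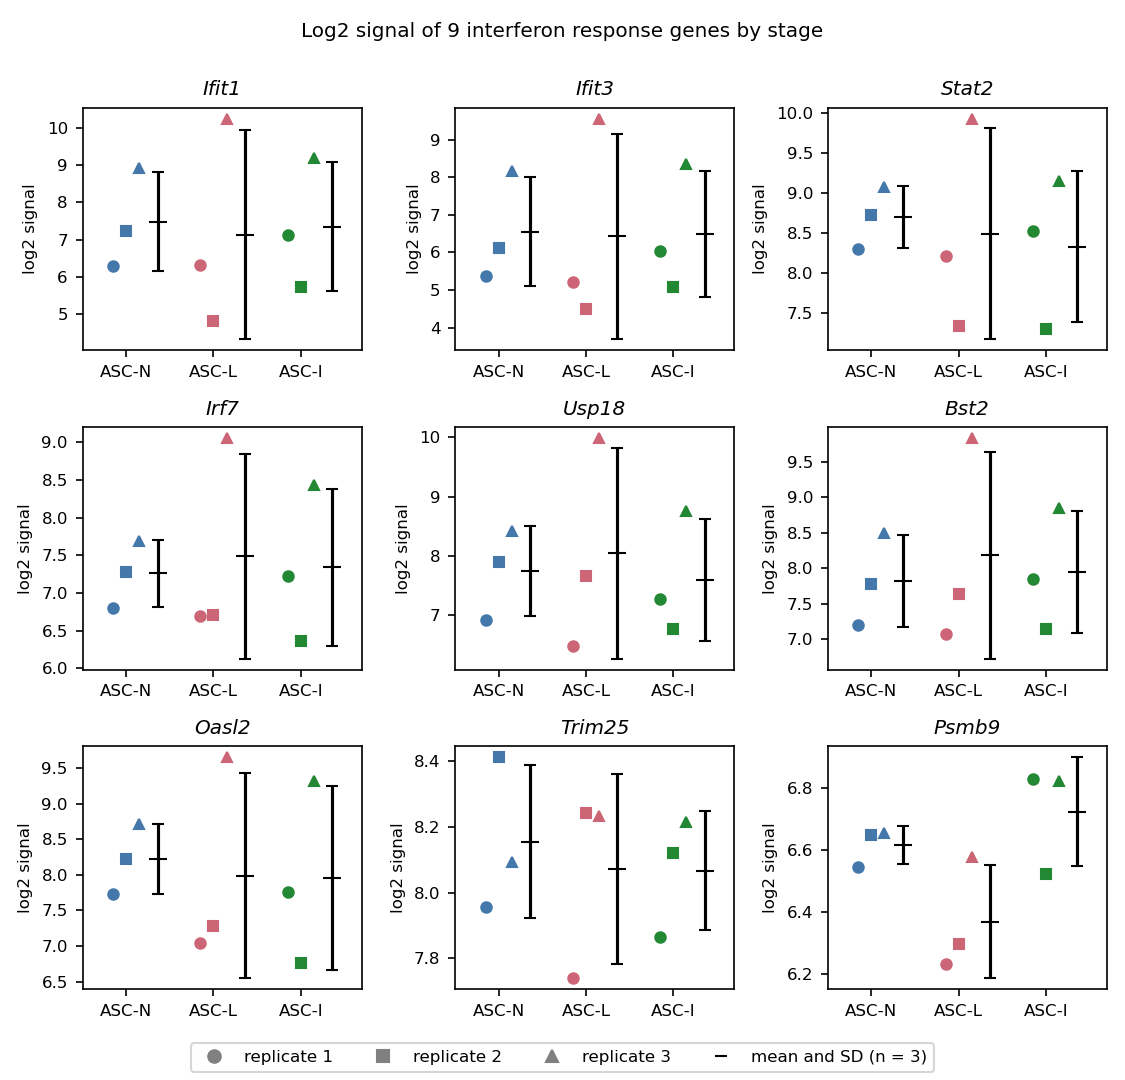
Log2 signal by stage for 9 of the interferon response genes, each point 1 array with its shape giving the replicate number, and the bar the mean and SD of the 3 arrays of a stage. Triangles (replicate 3) lie highest at every stage for the first 7 genes, reaching 10.25 for Ifit1 in ASC-Ls, but not for Trim25 and Psmb9, whose axes span less than 1 log2 unit.

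In the ISG15 system, Usp18, which removes ISG15 from proteins and also damps the receptor chain Ifnar2, had log2 signals of 6.92, 7.90 and 8.42 in ASC-Ns, of 6.49, 7.66 and 9.99 in ASC-Ls and of 7.27, 6.77 and 8.75 in ASC-Is. Its difference of -0.45 for ASC-Is minus ASC-Ls was the most negative of the 35 genes in that comparison and had a standard error of 0.85. Trim25, a ubiquitin ligase that activates RIG-I, did not have the pattern. It had 7.96, 8.41 and 8.09 in ASC-Ns, 7.74, 8.24 and 8.23 in ASC-Ls and 7.87, 8.12 and 8.21 in ASC-Is, with replicate 1 lowest at each stage and a range of 1.59-fold. The probe set shared by Isg15 and Gm9706, whose signal cannot be assigned to either gene, had 5.91, 6.66 and 7.15 in ASC-Ns, 6.18, 5.83 and 8.06 in ASC-Ls and 6.76, 5.91 and 7.41 in ASC-Is.

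Of the 10 measured antiviral effectors, 5 had replicate 3 highest at every stage. Bst2, or tetherin, which holds budding virus at the cell surface, had log2 signals of 7.21, 7.78 and 8.50 in ASC-Ns, of 7.08, 7.64 and 9.83 in ASC-Ls and of 7.86, 7.14 and 8.85 in ASC-Is. Rtp4, a receptor transporter protein with antiviral action, had 7.96, 8.47 and 8.59 in ASC-Ns, 7.09, 8.01 and 10.00 in ASC-Ls and 7.98, 7.34 and 9.49 in ASC-Is. Both had replicate 3 highest at every stage, and the other 3 such effectors were Mx2, Samd9l and Xaf1. Mx2, a dynamin-like GTPase, ranged over 10.1-fold between 4.20 in ASC-I replicate 2 and 7.53 in ASC-L replicate 3.

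The remaining effectors did not have that pattern at every stage. Rsad2, or viperin, which makes a chain-terminating nucleotide, had 4.68, 5.27 and 4.91 in ASC-Ns, 5.03, 4.39 and 6.28 in ASC-Ls and 5.04, 4.84 and 4.96 in ASC-Is. ASC-L replicate 3 lay above all other arrays, which overlapped between stages. Its direct neighbor in the genome, the nucleotide kinase gene Cmpk2, had its highest signal, 5.53, in the same array and 4.38 to 4.94 elsewhere. Mx1, a GTPase against influenza virus that is defective in most inbred mouse strains, had log2 signals between 3.69 and 4.65 on all arrays. Isg20, an exonuclease, was highest in ASC-I replicate 3 at 8.56, and its difference of 0.28 between ASC-Is and ASC-Ls became 0.61 and passed both limits without ASC-I replicate 2. Ifi35, the partner of Nmi, ranged over 2.05-fold.

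Gbp3, a GTPase that attacks the vacuoles of pathogens, had log2 signals of 7.12, 7.37 and 7.93 in ASC-Ns, of 6.30, 6.30 and 8.85 in ASC-Ls and of 6.79, 5.81 and 8.54 in ASC-Is. Its difference of -0.42 for ASC-Is minus ASC-Ns had a 95% interval of -2.24 to 1.40. The probe set shared by Gbp2 and Gbp2b had 8.04, 7.97 and 9.46 in ASC-Ns, 7.59, 6.81 and 9.84 in ASC-Ls and 7.67, 6.84 and 9.46 in ASC-Is, again highest in replicate 3 at each stage.

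Parp9 and Dtx3l form a ubiquitin ligase of the interferon response, and their genes lie side by side, with Parp14 on the other side of Dtx3l in RefSeq GRCm38.p6. Dtx3l had log2 signals of 7.20, 7.32 and 7.07 in ASC-Ns, of 6.66, 7.20 and 8.37 in ASC-Ls and of 6.93, 6.34 and 7.65 in ASC-Is. Parp9 had 7.96, 8.20 and 8.22 in ASC-Ns, 7.62, 8.01 and 9.17 in ASC-Ls and 7.77, 7.45 and 8.44 in ASC-Is. The ADP-ribosyltransferase gene Parp14 ran between 6.68 in ASC-L replicate 1 and 8.87 in ASC-L replicate 3. All 3 were highest in ASC-L replicate 3, and their differences for ASC-Is minus ASC-Ls, between -0.44 and -0.32, did not pass.

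The 3 genes of antigen processing for MHC class I had SDs within stages of 0.15 to 0.47, and in 0 of 3 was replicate 3 highest at every stage. Psmb9, a catalytic subunit of the immunoproteasome, had log2 signals of 6.55, 6.65 and 6.65 in ASC-Ns, of 6.23, 6.30 and 6.58 in ASC-Ls and of 6.83, 6.52 and 6.82 in ASC-Is. It was the only gene of the 35 below that p in any comparison. Its difference for ASC-Is minus ASC-Ls was 0.36 with a standard error of 0.13 and a 95% interval of 0.05 to 0.66 (limma, unadjusted p = 0.0267, adjusted p = 1.000). That is a 1.28-fold difference, below the fold limit, and ASC-I replicate 2 lay below ASC-L replicate 3. With 1 of 35 genes (2.86%) below that p, against 1.8% of all genes, the share is near the background. Its p was no longer under 0.05 without ASC-L replicate 1 or 2 or ASC-I replicate 1 or 3, where the difference was 0.29 to 0.32. Nor was it in an unpaired fit of the ASC-I and ASC-L arrays alone (0.0523). With the replicate number as a block over all 9 arrays it was 0.0221 (limma, adjusted p = 0.996). A paired fit of the ASC-I and ASC-L arrays alone was not run.

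Tap1, the peptide transporter whose gene lies between Psmb9 and Psmb8, had 7.65, 7.74 and 7.67 in ASC-Ns, 6.92, 6.97 and 7.96 in ASC-Ls and 7.28, 6.71 and 7.81 in ASC-Is. The 3 ASC-N arrays differed by less than 0.1 on the log2 scale, while in both other stages replicates 1 and 2 lay below all ASC-N arrays and replicate 3 above them. Its differences against ASC-Ns were -0.41 in ASC-Ls and -0.42 in ASC-Is (standard error 0.32), and the first became -0.74 and passed both limits without ASC-L replicate 3. Psmb8, the other inducible proteasome subunit, ranged between 6.25 and 7.30.

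The rest of the pathway was described by 7 further lists, in which 0 genes passed the limits in any comparison. Over all genes 0.627% passed for ASC-Ls against ASC-Ns, 0.251% for ASC-Is against ASC-Ns and 0.482% for ASC-Is against ASC-Ls. The absence of calls in these lists is near those shares. The signals of the interferon genes themselves did not show the order of arrays seen above, but most of them were low. Their list means lay below the median mean signal of all genes, 6.25. Ifna5, Ifnz and Ifnl2 lay above it, with mean signals of 6.82, 7.68 and 8.23. Signals as low as those of the other ligands may not show differences between arrays. Whether interferon production varied was not tested. Means over the 16 measured of 21 ligand genes lay between 4.91 and 5.16 on all arrays, Ifnb1 lay between 4.17 and 4.50 and Ifng between 4.50 and 4.86, and in 0 of 16 was replicate 3 highest at every stage. The ligand of largest difference was Ifna12, at 3.61, 3.07 and 3.30 in ASC-Ns, 3.04, 3.08 and 3.22 in ASC-Ls and 3.57, 3.80 and 3.61 in ASC-Is. Its difference for ASC-Is minus ASC-Ls, 0.55, stayed under the fold limit (limma, unadjusted p = 0.00546, adjusted p = 0.9996). The ASC-I and ASC-L arrays of Ifna12 did not overlap, as in 5.56% of all genes, at signals far below that median.

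Receptors and kinases had list means of 8.74 to 9.11 over 9 genes, and single genes ranged over up to 1.95-fold (Ifnar2). In 4 of the 9 replicate 3 was highest at every stage, against 7.96% of all genes. Ifngr2, a receptor chain for interferon gamma, had the largest difference, 0.32 for ASC-Ls minus ASC-Ns. The 6 negative regulators had means of 7.59 to 7.95, with replicate 3 highest at every stage in 0 of 6, and their largest difference was 0.56 for ASC-Is minus ASC-Ls in Ptpn6, a phosphatase of blood cells. Of 16 genes that sense infection upstream of interferon, 2 had the pattern. Tlr7, an endosomal receptor for RNA found in myeloid cells, had the largest difference there, 1.14 for ASC-Is minus ASC-Ls, with 5.87, 6.03 and 4.03 in ASC-Ns, 4.42, 4.45 and 4.08 in ASC-Ls and 6.48, 4.31 and 5.60 in ASC-Is, so that its order over arrays was not that of the interferon response genes.

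Other interferon-induced genes repeated the order of arrays in their list mean. Over 37 such genes the mean was 7.33, 7.51 and 7.55 in ASC-Ns, 7.18, 7.05 and 8.01 in ASC-Ls and 7.28, 7.07 and 7.73 in ASC-Is. Replicate 3 was highest at every stage in 18 of 37, and ASC-L replicate 3 was the highest array in 23, against 7.96% and 13.2% of all genes. Slfn5, of the Schlafen family, had 8.27, 7.80 and 9.03 in ASC-Ns, 7.34, 5.94 and 8.83 in ASC-Ls and 6.69, 6.07 and 8.03 in ASC-Is. Its difference of -1.44 for ASC-Is minus ASC-Ns was the largest of the list and had a standard error of 0.73. Slfn4 did not have that order of arrays, at a low signal of 4.27 to 5.02. Its ASC-N arrays lay below all others, with differences of 0.53 in ASC-Ls and 0.47 in ASC-Is, under the fold limit. The unadjusted p was 0.00123 and 0.00263 (limma), and the adjusted p was 0.998 and 0.9999.

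As a list mean, targets of interferon gamma shared the high ASC-L replicate 3 but not the ASC-N order. Gene by gene, replicate 3 was highest at every stage in 6 of 15, against 7.96% of all genes. The mean of 15 GTPase and chemokine genes was 6.11, 5.99 and 6.0 in ASC-Ns, 5.44, 5.47 and 6.78 in ASC-Ls and 5.55, 5.54 and 6.29 in ASC-Is. Iigp1, an immunity-related GTPase, had 7.72, 6.07 and 5.83 in ASC-Ns, 4.36, 4.03 and 7.54 in ASC-Ls and 4.82, 4.49 and 6.89 in ASC-Is. Replicate 3 was highest in ASC-Ls and ASC-Is but lowest in ASC-Ns. Among 8 other MHC class I genes, all 8 were highest in ASC-L replicate 3, among them Tapbp, which couples Tap1 to MHC class I, at 10.08 against 8.63 to 9.46 on the other arrays.

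**Figure D5:**
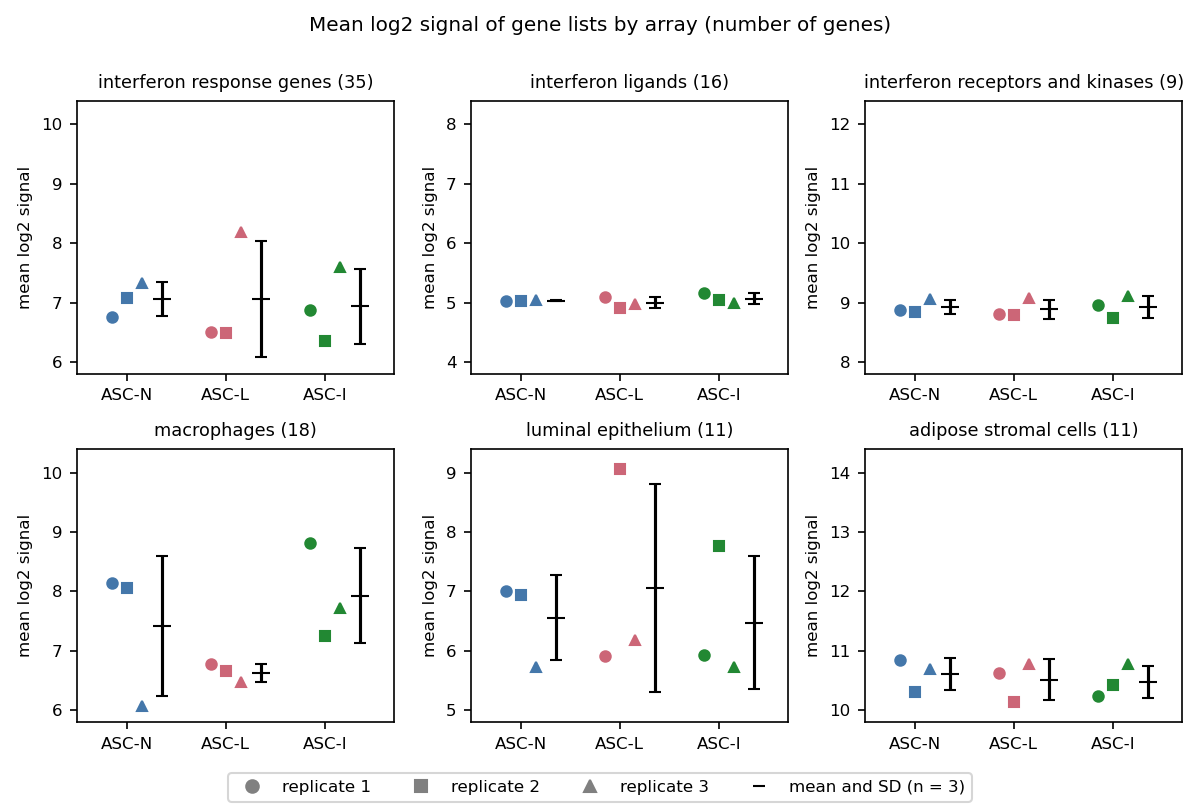
Mean log2 signal per array of the interferon response genes and 5 other lists, with the number of genes in brackets, shapes for replicate numbers and bars for the mean and SD of 3 arrays; all panels span the same number of log2 units. The spread of the interferon response genes, 6.35 to 8.19, is not seen in the ligands (4.91 to 5.16). Those ligand means lie below the median mean signal of all genes (6.25), where differences may not show, although Ifna5, Ifnz and Ifnl2 lie above it. Macrophage and luminal epithelial markers vary over arrays in other orders.

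Markers of other cell types also varied between arrays of the same stage. The label of the cells was checked against 11 adipose stromal markers, whose list means were 10.1 to 10.8 on all arrays, while those of adipocyte markers were 6.01 to 6.58. Macrophage markers, of which all 18 were measured, had means of 8.14, 8.05 and 6.06 in ASC-Ns, 6.77, 6.65 and 6.47 in ASC-Ls and 8.81, 7.25 and 7.72 in ASC-Is. ASC-N replicate 3 and ASC-L replicate 3, each the highest of its stage in interferon response genes, were the lowest of their stages in macrophage markers, and ASC-I replicate 3 lay between the other ASC-I arrays. In ASC-Is, 9 of the 18 macrophage markers passed the limits as higher than in ASC-Ls, a comparison in which 0.482% of all genes passed. The 0 of 35 interferon response genes that passed there is near that share. Dendritic cell markers stayed between 5.62 and 5.87, those of neutrophils between 4.51 and 4.92, of T and NK cells between 4.61 and 4.79 and of B cells between 4.49 and 4.80.

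Luminal epithelial markers (11 of 12 measured) had means of 7.0, 6.93 and 5.73 in ASC-Ns, 5.90, 9.07 and 6.18 in ASC-Ls and 5.92, 7.76 and 5.73 in ASC-Is. Replicate 2 of ASC-Ls and replicate 2 of ASC-Is, the lowest arrays of their stages in interferon response genes, were the highest in luminal markers. They were also the highest in basal epithelial markers (9.52 and 8.63, against 6.84 to 7.67 elsewhere) and milk genes (6.71 and 5.68, against 4.34 to 4.82). ASC-L replicate 1 was nearly as low as ASC-L replicate 2 in interferon response genes (means of 6.51 and 6.48), yet its luminal mean was 5.90 against 9.07. Endothelial markers were high in ASC-L replicate 2, ASC-I replicate 2 and ASC-N replicate 1 (7.07, 6.48 and 6.87), against 5.04 to 5.53 elsewhere. The part of these cells in the values of the interferon response genes was not tested. Without replicate 2 of ASC-Ls and of ASC-Is, 0 of 35 genes passed the limits in each comparison, and the median differences were 0.30 for ASC-Ls minus ASC-Ns, 0.19 for ASC-Is minus ASC-Ns and -0.12 for ASC-Is minus ASC-Ls.

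Genes with and without the promoter motif were set side by side as a description. The median within-stage SD was 0.81 for the 10 measured genes whose window held the motif, among them Ifit1, Ifit3, Bst2, Gbp3 and Stat2, and 0.45 for the 16 without it, among them Ifit2, Oasl2, Trim25 and Psmb9. Genes with the motif and a spread that was small beside the others included Oas3 and Eif2ak2. Their SDs were 0.30 and 0.32, against a median of 0.20 over all genes. Genes without it and wide spread included Irf7 and Oasl2.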

How the data were processed

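Gene expression was measured in 3 stages with 3 arrays each, grouped by the stage in the sample labels. The authors deposited a log2 signal for each probe set and array. The study's methods name robust multi-array average, whereas the submitters' processing notes name GCRMA and limma and give no version, so which normalization made the values is not settled. The methods' removal of genes of little variation was not seen in the deposited values, in which 23 probe sets had an SD under 0.05. No depth applies to arrays, and their number limits the precision.

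Of 28348 probe sets, 21762 carried 1 symbol in the platform annotation, 1621 several and 4965 none. Those with 1 symbol were averaged to 19930 genes. Every gene was fitted by limma 3.58.1 (R 4.3.3) with a mean per stage on the 9 arrays together, empirical Bayes moderation was applied, and p-values were adjusted over all genes by the Benjamini-Hochberg method. A call needed a change of 1.5-fold or more together with an unadjusted p below 0.05. The fit was tested on simulated data with known changes. Shares of the sum of squares came from a per-gene split by stage and by replicate number.

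The interferon response genes (members), lists and tests were chosen with earlier results of these data known. Named genes were members past the limits, 2 members per role with the largest absolute difference, the 6 members of highest and 3 of lowest mean signal, the promoters of 4 members, and the gene of largest difference in each pathway list. Ifit3, Irf1, Irf7, Zbp1, Oas1a, Oas3, Mx2, Samd9l, Xaf1, Ifi35, Isg20, Parp14, Psmb8, Ifnb1, Ifng, Ifna5, Ifnz, Ifnl2, Ifnar2, Slfn4, Pdgfra, Pparg and the shared probe sets were named after their values were seen, as was the comparison by replicate number. Cross-hybridization between close family members was not tested.

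The 3 stages use the same replicate numbers, and the methods name no pairing. Deviations from stage means correlated over all genes between equal numbers at r = 0.47, 0.73 and 0.46 for ASC-Ls and ASC-Is, at -0.08, 0.40 and 0.45 for ASC-Ls and ASC-Ns, and at 0.07, 0.43 and 0.50 for ASC-Is and ASC-Ns. Number 1 had r of -0.08 and 0.07 with ASC-Ns, so the numbers were counted as pairs between ASC-Ls and ASC-Is only. Numbers 2 and 3 correlated with ASC-Ns too, and the replicate block was fitted on all 9 arrays. Alternatives were quantile normalization, a fit of the 2 compared stages alone, a trended and robust prior, removal of the lowest 25% of genes by mean signal or of genes with a variance under 0.05, probe sets in place of gene means, probe sets of several symbols, the replicate block, leaving out each array, and leaving out both arrays of high epithelial signal. Scan dates were not used here.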

Additional observations from a re-analysis of the deposited data

How the results depend on the processing

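The median changes of the 35 genes turned in sign with single arrays. With the replicate number as a block, 0 of 35 interferon response genes passed the limits in each comparison, and the counts over all genes were 295, 90 and 207 in the comparisons of ASC-Ls with ASC-Ns, ASC-Is with ASC-Ns and ASC-Is with ASC-Ls, against 125, 50 and 96 without it. The block included the ASC-N arrays, although the numbers were counted as pairs between ASC-Ls and ASC-Is only. The block changed no call of an interferon response gene. Psmb9 had an unadjusted p of 0.0221 under it (adjusted p = 0.996, limma), against 0.0523 in an unpaired fit of the 2 stages alone. Leaving out each array in turn gave 0 to 1 interferon response genes in the comparisons with ASC-Ls and 0 to 0 between ASC-Is and ASC-Ns. The genes were Oasl1 (0.62 without ASC-L replicate 1) and Tap1 (-0.74 without ASC-L replicate 3) for ASC-Ls against ASC-Ns, and Isg20 (0.61 without ASC-I replicate 2) for ASC-Is against ASC-Ls. An arm of 2 arrays then shared its estimate of spread with the other stages. The counts over all genes ran between 80 and 404, 32 and 221, and 36 and 331, the low ones without ASC-N replicate 1, ASC-N replicate 1 and ASC-I replicate 1 and the high ones without ASC-L replicate 1, ASC-N replicate 3 and ASC-L replicate 1. Counts also moved by over 1.5 times to 352 when ASC-N replicate 3 was dropped and 230 when ASC-L replicate 3 was, to 83 and 92 without ASC-I replicate 2 or 3, and to 316 and 61 without ASC-I replicate 2 or 3, in the same order of comparisons. The median change of the 35 genes ran between -0.35 and 0.30, -0.45 and 0.19, and -0.54 and 0.32, crossing 0 in each comparison, within the SD of 0.69 between replicates of their array mean. With ASC-L replicate 2 and ASC-I replicate 2 both left out, these medians were 0.30, 0.19 and -0.12, and the counts over all genes were 144 for ASC-Is against ASC-Ns and 194 for ASC-Is against ASC-Ls. The cause of these moves was not tested. With 3 arrays per stage and a median standard error of 0.43, differences well above 1.5-fold could have gone uncalled in most of these genes.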
